A study of Homo sapiens with 8 samples.

Results

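Messenger RNAs of 6 genes of the microRNA processing pathway were followed in RNA recovered with biotinylated microRNAs from 786-0 cells, an established human line from a clear cell renal carcinoma. The 6 genes were taken by their Ensembl IDs from a table of 60666 gene IDs, and all 6 passed the filter on low counts that left 17351 tested genes. They are DROSHA (ENSG00000113360), DGCR8 (ENSG00000128191), XPO5 (ENSG00000124571), DICER1 (ENSG00000100697), TARBP2 (ENSG00000139546) and PRKRA (ENSG00000180228). Cells were transfected with a biotinylated synthetic duplex for 48 h, and the RNA bound to it was sequenced to look for targets of both microRNAs. The groups were miR-2355-5p with 2 libraries, miR-1271-5p with 3 libraries, and a control microRNA with 3 libraries as the background. All libraries came from this 1 line, and the labels give no other agent or genotype. No RNA from before the pulldown was used here, so a changed level of an mRNA in the cells and a changed recovery on the beads cannot be told apart.

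MicroRNAs are cut from longer transcripts in steps. In the nucleus, DROSHA, an RNase III enzyme, and DGCR8, its RNA-binding partner, form the Microprocessor, which releases a hairpin precursor. XPO5 (exportin-5) carries the hairpin to the cytoplasm with the GTPase Ran. There DICER1, another RNase III enzyme, cuts it into a short duplex, with TARBP2 (TRBP) and PRKRA (PACT), related double-stranded RNA-binding proteins, as partners, and 1 strand is loaded into an Argonaute protein. A loaded microRNA pairs with mRNAs mainly through its seed. A synthetic duplex enters after the Dicer step and does not need any of these cuts.

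The microRNAs used as bait are shown because the seed decides which mRNA letters they can pair with. The mature sequences, from RefSeq on GRCh38.p14, are written 5′ to 3′ with the seed, bases 2 to 8, in capitals.
hsa-miR-2355-5p: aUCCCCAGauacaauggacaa
hsa-miR-1271-5p: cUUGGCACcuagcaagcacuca
The first lies at chr2:207110043-207110063 on the minus strand and the second at chr5:176367960-176367981 on the plus strand. The seeds share the same letter at 3 of 7 positions. Their full complements in an mRNA read CUGGGGA for miR-2355-5p and GUGCCAA for miR-1271-5p. Transcript sequences were not used here, so the 6 mRNAs were not searched for these letters. The sequence of the control microRNA was not used here either.

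Library totals ran from 4122875 counts in control replicate 2 to 22864693 in control replicate 1. The 6 genes had 120 to 4942 reads per library, which gives counting errors of 9.13% to 1.42%, the widest for TARBP2 in control replicate 2. They leave out everything but counting, and PCR copies of a molecule could not be removed. Replicates of a group differed by more than sampling noise, with a chi-square of 5.61 to 18.6 per degree of freedom. No replicate of a group was a copy of another by this measure. Whether replicates were grown as separate cultures is not stated in the labels, and the p-values therefore rest on a spread that may be technical. The IDs of the other rows are not paired with gene names, so markers of renal epithelium and other lists fixed by symbol were not analysed here. The table gives no transcript lengths, and levels are therefore compared between groups and not between genes.

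XPO5 and DGCR8 were higher in both microRNA pulldowns than in the control pulldown, and XPO5 moved the most. The rise of XPO5 with miR-1271-5p was 1.80-fold (95% interval 1.53 to 2.11) and with miR-2355-5p 1.37-fold (1.15 to 1.64). DGCR8 was 1.26-fold higher with miR-1271-5p (1.06 to 1.49) and 1.28-fold higher with miR-2355-5p (1.06 to 1.54). DROSHA, DICER1, TARBP2 and PRKRA passed the test in neither comparison with the control. In each comparison 2 of 6 genes (33.3%) were called higher, where 12.3% of all tested genes were called higher with miR-2355-5p and 17.6% with miR-1271-5p. With miR-2355-5p the count was 3 at an unadjusted p under 0.05 and with DESeq2, 1 in a fit of the groups compared, and 0 without miR-2355-5p replicate 1 or control replicate 3. Over all tested genes the 2127 called higher became 760 without miR-2355-5p replicate 1 and 1458 without control replicate 3. With miR-1271-5p the count was 2 at an unadjusted p under 0.05, with DESeq2 and in a fit of the groups compared, and 1 without miR-1271-5p replicate 1 or 2 or control replicate 1 or 3. No processing gene was called lower in either comparison by edgeR or DESeq2, against 17.5% of all tested genes with miR-2355-5p and 22.5% with miR-1271-5p. At an unadjusted p under 0.05, 0 were lower with miR-2355-5p and 1 with miR-1271-5p. The call is edgeR's quasi-likelihood test with a Benjamini-Hochberg adjusted p under 0.05 over all tested genes. The median log2 fold change of the 6 genes was 0.28 with miR-2355-5p and 0.20 with miR-1271-5p, beside -0.0046 and 0.0055 over all tested genes. Both comparisons used the same control libraries.

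**Figure D1:**
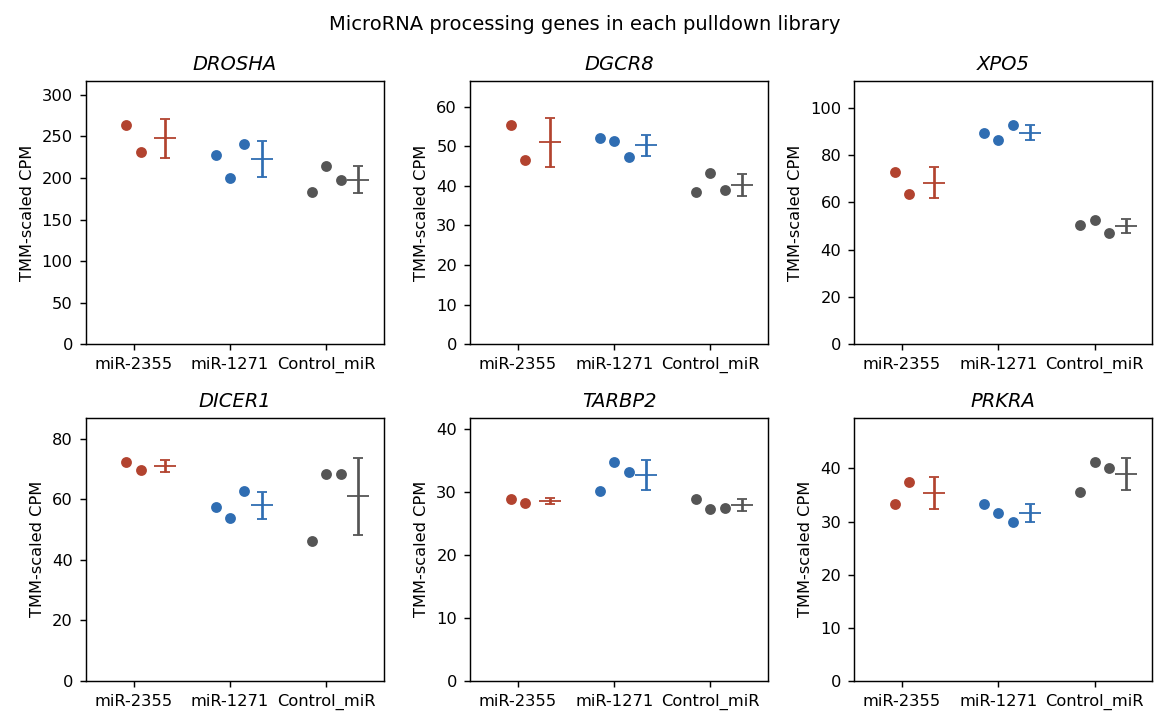
Level of each processing gene in TMM-scaled CPM (vertical axes from 0) in the miR-2355, miR-1271 and Control_miR libraries; points are libraries, and the bar beside them is the mean ± SD of the group. XPO5 lay between 86.3 and 92.8 CPM with miR-1271 and at 63.6 and 72.9 CPM with miR-2355, above 46.9 to 52.7 CPM in the control libraries.

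The Microprocessor genes come first in the pathway. DROSHA lies on chromosome 5 (chr5:31400494-31532093, minus strand, GRCh38.p14), and no other RefSeq gene overlaps it. Its level in CPM, the read count scaled for library size with TMM factors, was 264 and 231 CPM in the miR-2355-5p libraries, 228, 200 and 241 CPM in the miR-1271-5p libraries, and 183, 214 and 197 CPM in the control libraries. Both miR-2355-5p libraries lay above all controls, as for 24.9% of all tested genes, while the miR-1271-5p libraries overlapped the controls. The log2 fold change was 0.32 ± 0.14 (SE) with miR-2355-5p, short of the threshold at an edgeR adjusted p of 0.0842. It passed in 2 of 16 alternatives, upper-quartile scaling (0.41, adjusted p = 0.0289) and DESeq2 (0.35, adjusted p = 0.0353). Upper-quartile scaling also moved the median over all tested genes by 0.079. The 14 that fell short included library totals alone (0.30, adjusted p = 0.136) and leaving out control replicate 3 (0.32, adjusted p = 0.172). Without miR-2355-5p replicate 1 the value was 0.25. With miR-1271-5p it was 0.17 ± 0.12 (SE; edgeR adjusted p = 0.281), with an interval of 0.941- to 1.35-fold.

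DGCR8 lies on chromosome 22 (chr22:20080241-20111872, plus strand), and the RefSeq microRNA genes MIR3618 and MIR1306 lie within it. It stood at 55.4 and 46.6 CPM with miR-2355-5p, at 52.1, 51.4 and 47.2 CPM with miR-1271-5p, and at 38.4, 43.3 and 38.9 CPM with the control. With these TMM-scaled levels every microRNA library was above every control library, and the microRNA groups overlapped each other. The miR-1271-5p separation was lost without TMM factors, where miR-1271-5p replicate 3 fell below control replicate 2. Both miR-2355-5p libraries stayed above all controls there. Groups without overlap in this direction were found for 24.9% of all tested genes with miR-2355-5p and 23.1% with miR-1271-5p, so separation alone was common. The log2 fold changes were 0.35 ± 0.13 (SE; edgeR adjusted p = 0.0468) and 0.33 ± 0.12 (SE; edgeR adjusted p = 0.0335). These fell within the bulk of the table: 76.0% and 71.6% of all tested genes had a smaller log2 fold change. Both calls lay close to the threshold and were lost in 9 of 16 and 8 of 16 alternatives. The miR-2355-5p call was lost without miR-2355-5p replicate 1, miR-1271-5p replicate 1, control replicate 1 or control replicate 3 (adjusted p of 0.0533 to 0.366), and the miR-1271-5p call without miR-1271-5p replicate 1 or 2 or control replicate 1 or 3 (adjusted p of 0.0733 to 0.114). When libraries were scaled by their totals only, the log2 fold changes were 0.33 (adjusted p = 0.0731) with miR-2355-5p and 0.18 (adjusted p = 0.257) with miR-1271-5p.

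The ratio of DROSHA to DGCR8 reads within a library does not depend on scaling. It was 4.77 and 4.96 with miR-2355-5p, 4.37, 3.89 and 5.11 with miR-1271-5p, and 4.76, 4.95 and 5.07 with the control. The microRNA groups overlapped the control group. The difference in mean log2 ratio from the control was -0.018 with miR-2355-5p (exact permutation p = 0.8, two-sided) and -0.15 with miR-1271-5p (exact permutation p = 0.4). The miR-1271-5p difference was -0.059 without miR-1271-5p replicate 2 and -0.26 without replicate 3. With these group sizes an exact test cannot go below 0.1.

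XPO5, the exporter of precursor hairpins, lies on chromosome 6 (chr6:43522334-43576038, minus strand). Its level was 72.9 and 63.6 CPM in the miR-2355-5p libraries. In the miR-1271-5p libraries it was 89.3, 86.3 and 92.8 CPM, and in the control libraries 50.6, 52.7 and 46.9 CPM. The order was miR-1271-5p, miR-2355-5p and control, with no overlap between any pair of groups. Each such separation was common among all tested genes. It was found for 24.9% (miR-2355-5p above control), 23.1% (miR-1271-5p above control) and 20.5% (miR-2355-5p below miR-1271-5p). With miR-1271-5p the log2 fold change of XPO5 over control was 0.84 ± 0.11 (SE; edgeR adjusted p = 1.82e-05), larger than that of 92.5% of all tested genes. The call held in all 16 alternatives, at 0.70 to 0.94 and adjusted p-values of 5.45e-11 to 0.00038. With miR-2355-5p it was 0.45 ± 0.12 (SE; edgeR adjusted p = 0.00984), larger than that of 82.0% of all tested genes. That call was lost without miR-2355-5p replicate 1 (0.37, adjusted p = 0.13), where the lone remaining library is given the spread of the others, and without control replicate 3 (0.40, adjusted p = 0.0509).

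**Figure D2:**
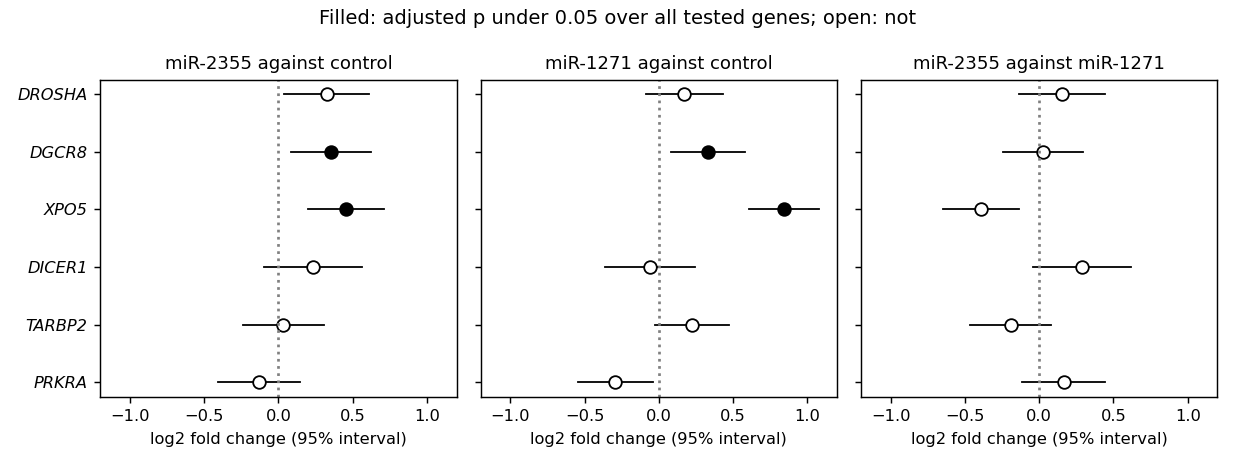
Log2 fold change of each processing gene (horizontal axes) with its 95% interval in the 3 comparisons; filled points passed an adjusted p under 0.05 over all tested genes and open points did not. XPO5 and DGCR8 are filled in both comparisons with the control, and no gene is filled between miR-2355 and miR-1271.

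Another protein-coding gene, POLR1C, a subunit of RNA polymerases, overlaps 74.6% of the span of XPO5 on the opposite strand in RefSeq. The strand setting of the counting is not given in the sources used here. Reads from such a partner could enter the XPO5 row or be dropped from it, and their part in the result was not tested. Nor was that of the other overlapping genes. The pseudogene RPS2P29 covers 1.75% of XPO5 and a pair of small noncoding genes under 1% of it. MAP3K12 covers 11.2% of TARBP2 on the opposite strand, and the noncoding CHROMR covers 44.7% of PRKRA. DICER1-AS1 covers 0.45% of DICER1 and the microRNA gene MIR3173 0.095% of it. These are shares of whole gene spans with introns, and the overlap of exons was not measured.

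XPO5 was also set against the other processing genes in the same library, a description chosen after the levels had been seen. All 5 ratios share the XPO5 reads, so they are not results separate from its level. How often ratios of other genes separate the groups was not computed. The ratio of XPO5 to DICER1 reads was 1.01 and 0.914 with miR-2355-5p, 1.55, 1.6 and 1.48 with miR-1271-5p, and 1.09, 0.77 and 0.686 with the control. The ratio of XPO5 to DROSHA reads was 0.276 and 0.275 with miR-2355-5p, 0.392, 0.432 and 0.385 with miR-1271-5p, and 0.277, 0.246 and 0.238 with the control. For all 5 partners the miR-1271-5p libraries lay above every control library. With miR-2355-5p this was so only for the ratios to TARBP2 (2.52 and 2.25, against 1.71 to 1.93 in the controls) and to PRKRA (2.19 and 1.70, against 1.17 to 1.42). The ratios to DICER1, DROSHA and DGCR8 overlapped the controls there.

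**Figure D3:**
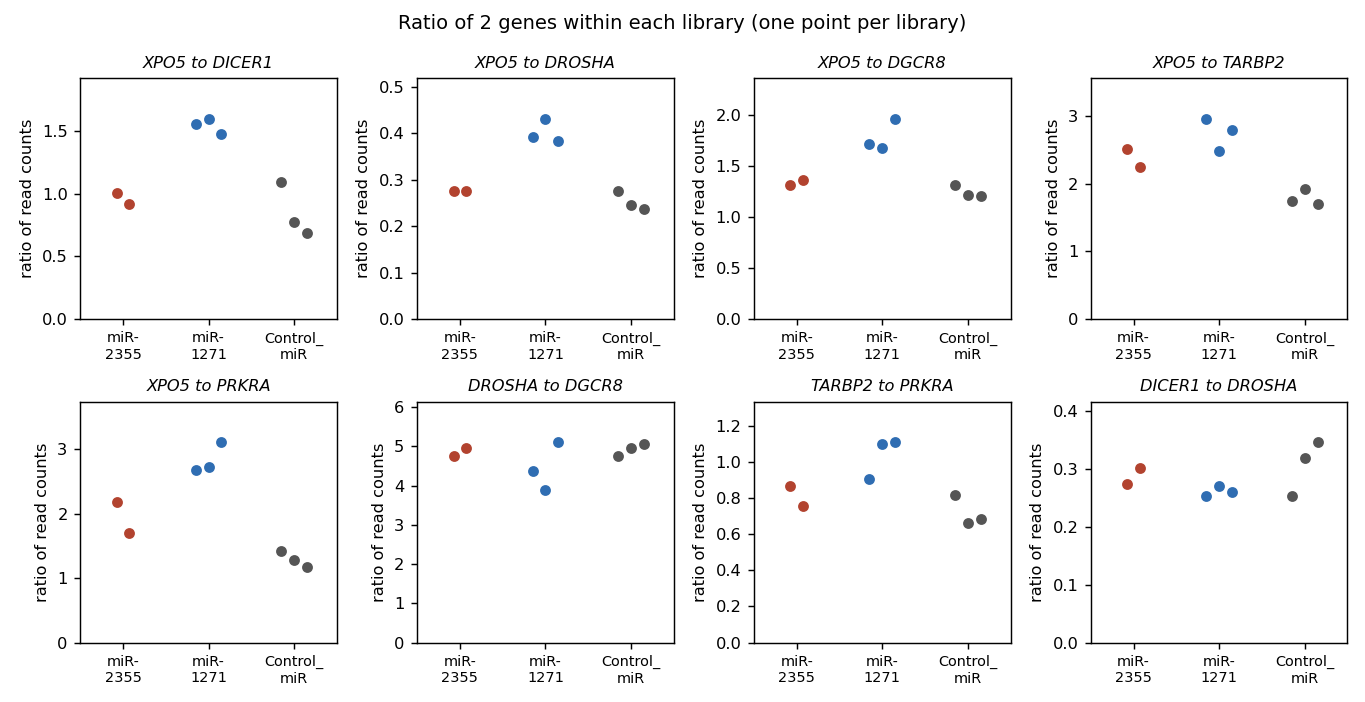
Ratio of read counts of a pair of processing genes within each library (vertical axes from 0, one point per library), for XPO5 to each other gene and for 3 further pairs. All miR-1271 points lie above all control points in the 5 XPO5 panels, for instance 0.385 to 0.432 against 0.238 to 0.277 for XPO5 to DROSHA.

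The cytoplasmic genes begin with DICER1, on chromosome 14 (chr14:95086228-95158010, minus strand). It stood at 72.5 and 69.6 CPM with miR-2355-5p and at 57.5, 54.0 and 62.8 CPM with miR-1271-5p. The control libraries had 46.2, 68.4 and 68.3 CPM. Both miR-2355-5p libraries lay above all controls, as for 24.9% of all tested genes, while the miR-1271-5p libraries overlapped the controls. Without TMM factors the miR-2355-5p libraries overlapped the controls too. Control replicate 1 was far below the other controls, and the SD of 12.8 CPM among controls was the widest relative to the mean of any group of the 6 genes, at 21.0%. The log2 fold change was 0.23 ± 0.16 with miR-2355-5p (SE; edgeR adjusted p = 0.285) and -0.058 ± 0.14 with miR-1271-5p (SE; edgeR adjusted p = 0.775). Without control replicate 1 these were 0.054 (adjusted p = 0.789) and -0.24 (adjusted p = 0.114). The intervals of 0.934- to 1.48-fold and 0.780- to 1.18-fold leave room for modest changes in either direction.

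TARBP2, a Dicer partner, lies on chromosome 12 (chr12:53500923-53506431, plus strand). It had 28.9 and 28.3 CPM with miR-2355-5p, 30.1, 34.8 and 33.1 CPM with miR-1271-5p, and 29.0, 27.4 and 27.5 CPM with the control. The miR-1271-5p libraries all lay above the controls, as for 23.1% of all tested genes, and the miR-2355-5p libraries overlapped the controls. Without TMM factors the miR-1271-5p libraries overlapped the controls too. The log2 fold change with miR-1271-5p was 0.22 ± 0.12 (SE; edgeR adjusted p = 0.14). It passed only with upper-quartile scaling (0.32, adjusted p = 0.0369) among the 16 alternatives. With miR-2355-5p it was 0.032 ± 0.13 (SE; edgeR adjusted p = 0.886), with an interval of 0.846- to 1.23-fold.

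PRKRA, the other Dicer partner and an activator of the kinase PKR, lies on chromosome 2 (chr2:178431414-178451175, minus strand). It had 33.3 and 37.5 CPM with miR-2355-5p, 33.3, 31.7 and 29.9 CPM with miR-1271-5p, and 35.5, 41.3 and 40.0 CPM with the control. All miR-1271-5p libraries lay below all controls, as did those of 26.8% of all tested genes. The log2 fold change with miR-1271-5p was -0.29 ± 0.12 (SE; edgeR adjusted p = 0.0604, unadjusted p = 0.0254). It passed in 2 of 16 alternatives, without control replicate 1 (-0.36, adjusted p = 0.03) and with library totals alone (-0.44, adjusted p = 0.00999). Library totals alone also moved the median over all tested genes by -0.15. The 14 that fell short included thinned counts (-0.20, adjusted p = 0.253) and upper-quartile factors (-0.19, adjusted p = 0.186). With miR-2355-5p it was -0.13 ± 0.13 (SE; edgeR adjusted p = 0.494).

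The Dicer partners thus had estimates of opposite sign with miR-1271-5p. The ratio of TARBP2 to PRKRA reads was 0.869 and 0.754 with miR-2355-5p, 0.904, 1.1 and 1.11 with miR-1271-5p, and 0.816, 0.663 and 0.686 with the control. Every miR-1271-5p library was above every library of the other groups, narrowly so at 0.904 against 0.869. How often ratios of other genes separate the groups in this way was not computed. The mean log2 ratio was 0.52 above the control with miR-1271-5p (exact permutation p = 0.1, the smallest that 3 against 3 libraries allow, and 0.45 after adjustment over the 9 ratio tests). With miR-2355-5p it was 0.17 above the control (exact permutation p = 0.3, adjusted p = 0.54). With counts thinned to the shallowest library the differences were 0.32 with miR-1271-5p and 0.045 with miR-2355-5p. The miR-2355-5p difference was 0.069 without miR-2355-5p replicate 1, 0.27 without replicate 2, 0.26 without control replicate 1 and 0.11 without control replicate 2. The ratio of DICER1 to DROSHA reads, the RNase III enzymes of the pathway, was 0.275 and 0.301 with miR-2355-5p, 0.252, 0.27 and 0.26 with miR-1271-5p, and 0.253, 0.319 and 0.346 with the control. Its log2 difference from the control was -0.079 with miR-2355-5p (exact permutation p = 0.8) and -0.22 with miR-1271-5p (exact permutation p = 0.3). The miR-1271-5p difference was -0.35 without control replicate 1 and -0.12 without control replicate 3.

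**Figure D4:**
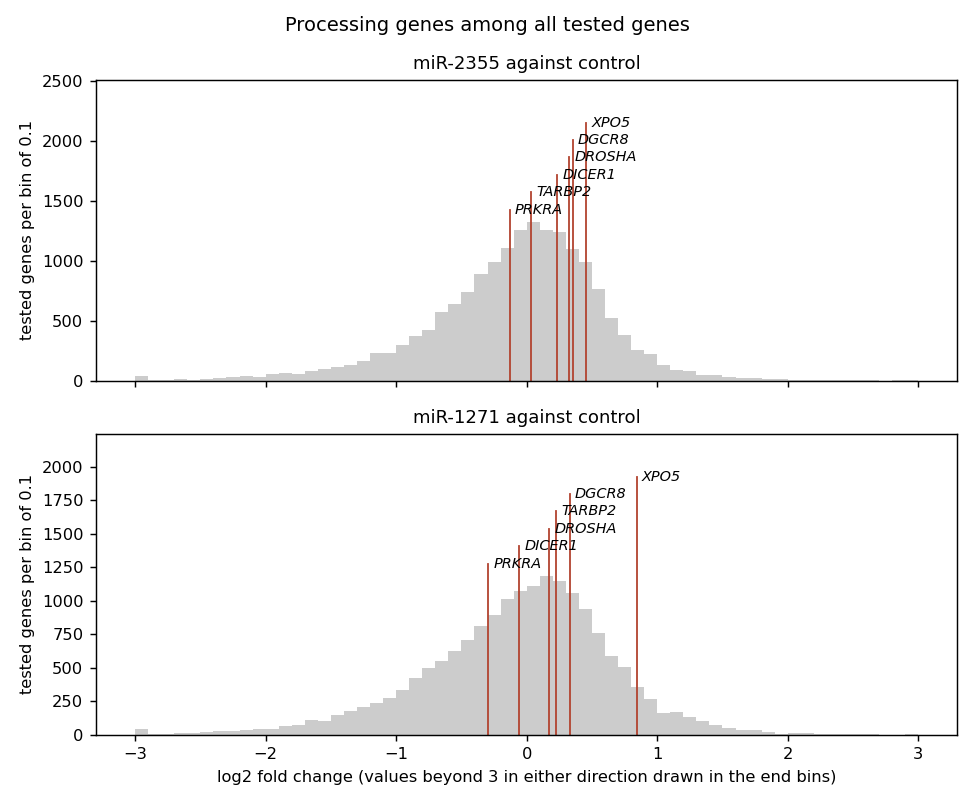
Number of tested genes (vertical axes) by log2 fold change in bins of 0.1 (horizontal axis) for miR-2355 against control and miR-1271 against control; red lines mark the processing genes, and their heights only separate the names. Among the marked processing genes, XPO5 is farthest to the right in both panels, at 0.45 and 0.84, and PRKRA farthest to the left, at -0.13 and -0.29.

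The direct comparison of the pulldowns asks where the microRNAs differ. No processing gene was called higher with miR-2355-5p and none lower (edgeR adjusted p under 0.05), where 3.5% and 2.65% of all tested genes were. At an unadjusted p under 0.05, 0 were higher and 1 was lower, and DESeq2 called the same numbers. That gene was XPO5, with a log2 difference of -0.39 ± 0.12 (SE; miR-2355-5p minus miR-1271-5p; edgeR adjusted p = 0.0672, interval 0.638- to 0.912-fold). Its miR-2355-5p libraries were both below the miR-1271-5p libraries, as for 20.5% of all tested genes. It passed with DESeq2 (-0.39, adjusted p = 0.0449), in a fit of the 2 microRNA groups alone (-0.39, adjusted p = 0.0362) and without control replicate 1 (-0.39, adjusted p = 0.0427). In the other 13 of 16 alternatives XPO5 fell short. These included library totals alone (-0.27, adjusted p = 0.209), no low-count filter (-0.35, adjusted p = 0.259) and the replicate block (-0.40, adjusted p = 0.133). Without miR-2355-5p replicate 2 the difference was -0.29. DICER1 had a difference of 0.29 ± 0.16 (SE; edgeR adjusted p = 0.282), and its miR-2355-5p libraries were both above the miR-1271-5p libraries, as for 21.1% of all tested genes. DGCR8 differed by 0.023 ± 0.13 (SE; edgeR adjusted p = 0.941), with an interval of 0.843- to 1.23-fold. The differences for DROSHA, TARBP2 and PRKRA were 0.15, -0.19 and 0.16 on the log2 scale, with edgeR adjusted p-values of 0.551, 0.395 and 0.49. The miR-2355-5p libraries also lay below all miR-1271-5p libraries for TARBP2 and above them, if only just, for PRKRA. For TARBP2 these groups overlapped without TMM factors.

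**Figure D5:**
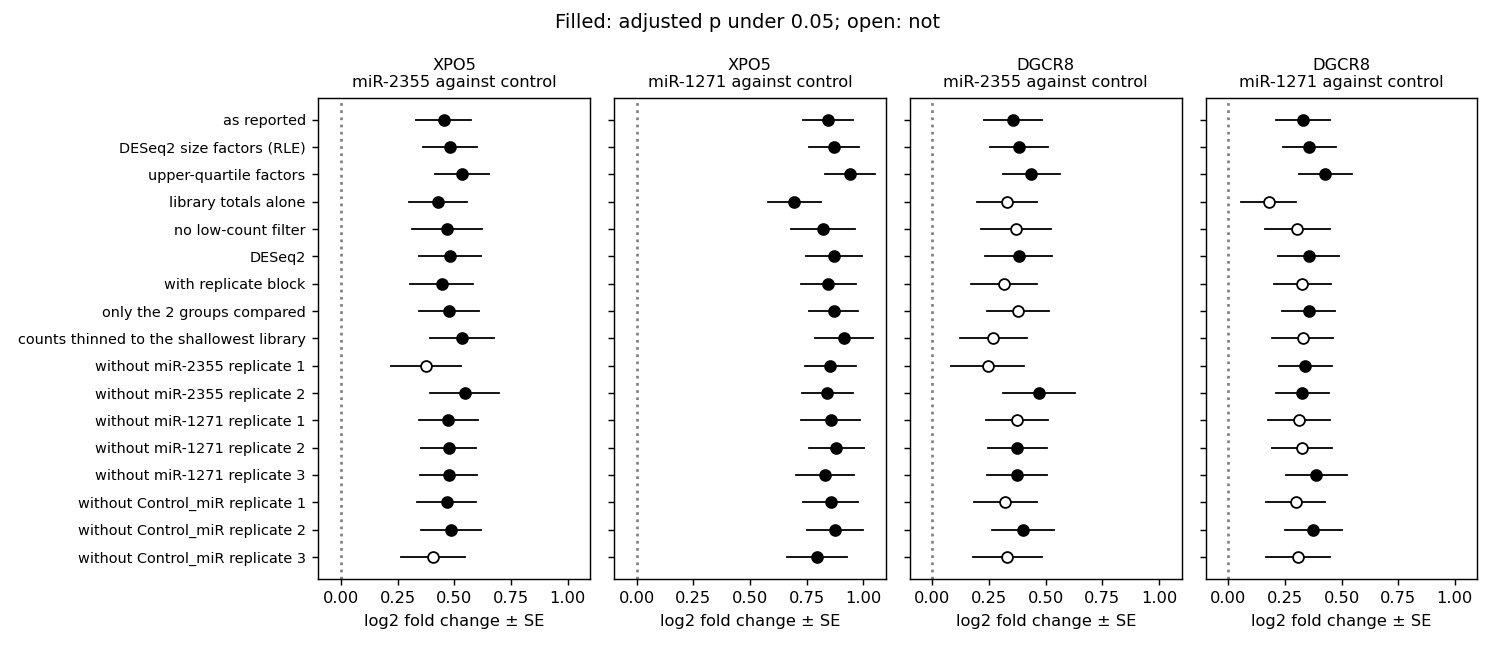
Log2 fold change ± SE (horizontal axes) of XPO5 and DGCR8 against the control as reported and under each of 16 alternatives (vertical axis); filled points have an adjusted p under 0.05. XPO5 with miR-1271 is filled throughout, at 0.70 to 0.94, while DGCR8 is open in 9 alternatives with miR-2355 and 8 with miR-1271.

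Summed over the 6 genes, the level was 527 and 477 CPM with miR-2355-5p, 490, 458 and 507 CPM with miR-1271-5p, and 382, 448 and 419 CPM with the control. With TMM scaling, every microRNA library was above every control library. Without TMM factors the sums overlapped, with control replicate 2 above miR-1271-5p replicates 1 and 2. DROSHA, which passed the test in neither comparison with the control, supplied 43.6% to 50.1% of these reads in each library. Sums over other sets of genes were not computed, so how common such a separation is was not tested. Among 10220 abundant genes, the 1 whose log2 CPM was most like that of each processing gene over the 8 libraries had a Pearson's r of 0.972 to 0.991, given as a description. In no case was it another processing gene, and these IDs are not paired with names. Libraries of a group share their bait, so such a pattern can follow the group means alone: 212 genes reached an r of 0.95 with XPO5 and 4 with DICER1.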

How the data were processed

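The authors deposited raw read counts for each Ensembl gene ID in each library, not normalized. Alignment with BWA and counting with featureCounts, on hg38 or GRCh38, are named in the submitters' processing notes, with no version. The annotation release, strand setting and handling of multi-mapping reads were not given in the sources used here. Reads across splice junctions can be lost with BWA, and whether this loss differed between libraries was not tested. All 8 columns were grouped by their titles.

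The whole table was fitted with edgeR 4.0.16 in R 4.3.3 (filterByExpr, TMM, quasi-likelihood, 1 mean per group, all 8 libraries), and p-values were adjusted by Benjamini-Hochberg over 17351 genes. The standard error is the size of the log2 fold change over the root of F, and intervals use the t quantile of that fit. The procedure was run on simulated independent libraries in which few genes changed, and the outcome is not given here. Scaling under changes as widespread as in these data was not tested. Ratios within libraries were compared by exact permutation tests. Alternatives were DESeq2 1.42.0, other scalings, no filter, a replicate block, fits of 2 groups, thinned counts and leaving out each library.

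The genes and lists were chosen with earlier results of these data known. By rule, all 6 genes were described. Further lists of pathway genes and cell markers were written by symbol, and 0 IDs matched the RefSeq gene table, so they were not run. Positions and overlaps are those of RefSeq on GRCh38.p14, matched by symbol for 6 of 6 genes.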

Additional observations from a re-analysis of the deposited data

How the results depend on the processing

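Over the 6 genes, 3 comparisons and 16 alternatives, 253 of 288 values kept their direction and their side of the threshold, 19 lost a call, 8 gained one and 8 changed sign. The count of genes called higher with miR-2355-5p (2) was 1 with library totals alone, without the low-count filter, in the fit of the groups compared and with thinned counts, 3 with upper-quartile factors and with DESeq2, and 0 to 2 on leaving out 1 library (0 without miR-2355 replicate 1 or control replicate 3). The count higher with miR-1271-5p (2) was 1 with library totals alone, without the filter and with thinned counts, 3 with upper-quartile factors, and 1 to 2 on leaving out 1 library. The count lower with miR-1271-5p (0) was 1 with library totals alone, and 0 to 1 on leaving out 1 library. Between the pulldowns the count lower (0) was 1 with DESeq2 and in the fit of the groups compared, and 0 to 1 on leaving out 1 library. The cause of these changes was not tested. Signs changed only for uncalled values: DICER1 with miR-1271-5p (0.044 with upper-quartile factors; -0.24 to 0.045 on leaving out 1 library), DGCR8 between the pulldowns (-0.061 with thinned counts; -0.097 to 0.14), the DROSHA to DGCR8 ratio with miR-2355-5p (0.069 with thinned counts; -0.046 to 0.011) and the DICER1 to DROSHA ratio with miR-2355-5p (-0.21 to 0.016). 

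With the replicate number as a block, 1 gene was called higher with miR-2355-5p and 1 with miR-1271-5p, XPO5 in both (DGCR8 had adjusted p-values of 0.136 and 0.0564), and DGCR8 differed by -0.0095 between the pulldowns; no other call changed. Deviations from the group means had an r over genes of -0.103 to 0.0185 for same-numbered libraries and of -0.0972 to 0.103 for differently numbered ones. With 2 or 3 libraries per group these values are tied to one another, so they cannot exclude a pairing. The numbers were not taken as pairs in the main fit.

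Over all genes, library totals alone moved the median log2 fold change by -0.15 with miR-1271-5p and by 0.13 between the pulldowns. Higher genes made up 41.1% of calls with miR-2355-5p and 43.9% with miR-1271-5p under TMM, 52.0% and 54.6% under upper-quartile factors, and 27.95% with miR-1271-5p under library totals. With miR-1271-5p 3062 genes were higher, and 1896 under library totals. Between the pulldowns 608 were higher and 459 lower, against 1252 and 261 under library totals, 930 higher without the filter, 320 and 217 with the block, 970 and 902 in the fit of the groups compared, and 398 and 290 with thinned counts. On leaving out 1 library they were 154 to 915 and 70 to 785, and with miR-2355-5p against control 760 to 2241 higher and 1569 to 3000 lower.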
